A study of Mus musculus with 8 samples.

Results

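Endothelial and angiogenic genes were described in the soleus, a slow-twitch muscle of the lower hind limb, of mice given the oral bacterium Porphyromonas gingivalis. The 37 members came from a list of gene symbols: markers of the endothelial lining, the vascular endothelial growth factor (VEGF) and angiopoietin ligands with their receptors, endothelial transcription factors, peptide and lipid receptors, a Notch ligand and receptor, and endothelial nitric oxide synthase. All 37 had a probe on the array and all 37 passed the filter on dim probes, out of 22271 genes tested. The 4 Pg arrays held soleus RNA of male C57BL/6J mice, 14 weeks old, that had received P. gingivalis cells in 100 µL of saline by feeding needle during 6 weeks. The 4 Co arrays held soleus RNA of male C57BL/6J mice of the same age that had received saline alone. All mice ate High-fat diet 32, so neither group stands for animals on a normal diet. Whether 1 array stands for 1 animal is not stated in the labels, so p-values measure only the spread between these samples.

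Endothelial cells line every vessel, and in muscle most of them form the capillaries that run along the fibres. VEGF released by fibres and stroma acts on receptor tyrosine kinases of the endothelium, chiefly Kdr, and angiopoietins act on the Tie receptors that keep vessels quiescent. Oxidative muscles such as the soleus are known for a dense capillary bed. In bulk tissue, fewer endothelial cells and less RNA per endothelial cell cannot be told apart.

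Values are log2 signals of 1-colour arrays relative to the 75th percentile of the same array, so they compare arrays for a given probe and not genes with each other. That percentile lay between 648 and 738 in the Pg arrays and between 696 and 764 in the Co arrays. Between 34852 and 35365 probes were well above background in the Pg arrays, against 30177 to 34075 in the Co arrays. All 8 arrays shared 1 slide, with the Pg arrays in one column and the Co arrays in the other, so treatment and side of the slide cannot be told apart. In the authors' deposited table of normalized values, each of the 8 columns matched best the scanner file of the other group with the same number, and 0 of 8 matched their own. Groups below follow the sample labels of the scanner files, and every direction would turn if the column names of the authors' deposited table were the correct ones.

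Relative to saline, P. gingivalis mice showed lower signal for 7 endothelial genes in 4 of 4 arrays, with no overlap: Cd93, Icam2, Kdr, Mmrn2, Egfl7, Nos3 and Ptprb. Except for Ptprb, each of the 7 had only 1 kept probe. Differences of the 7 ran from 1.23-fold to 1.56-fold lower. None of them reached an adjusted p of 0.05 in the limma fit over all genes, where they had values of 0.0579 to 0.0735. By that threshold 0 of 37 members were called, where 0.117% of all genes were (26 of 22271). At an unadjusted p under 0.05, 10 members were lower (9.68% of all genes) and 1 was higher (10% of all genes). Non-overlapping arrays were found for 7 members on the lower side, against 6.1% of all genes, and for 1 member on the higher side, against 7.34% of all genes. Differences were below 0 for 27 of the 37 members and for 52.3% of all genes. The median log2 difference of the members was -0.13, beside -0.011 over all genes tested.

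**Figure D1:**
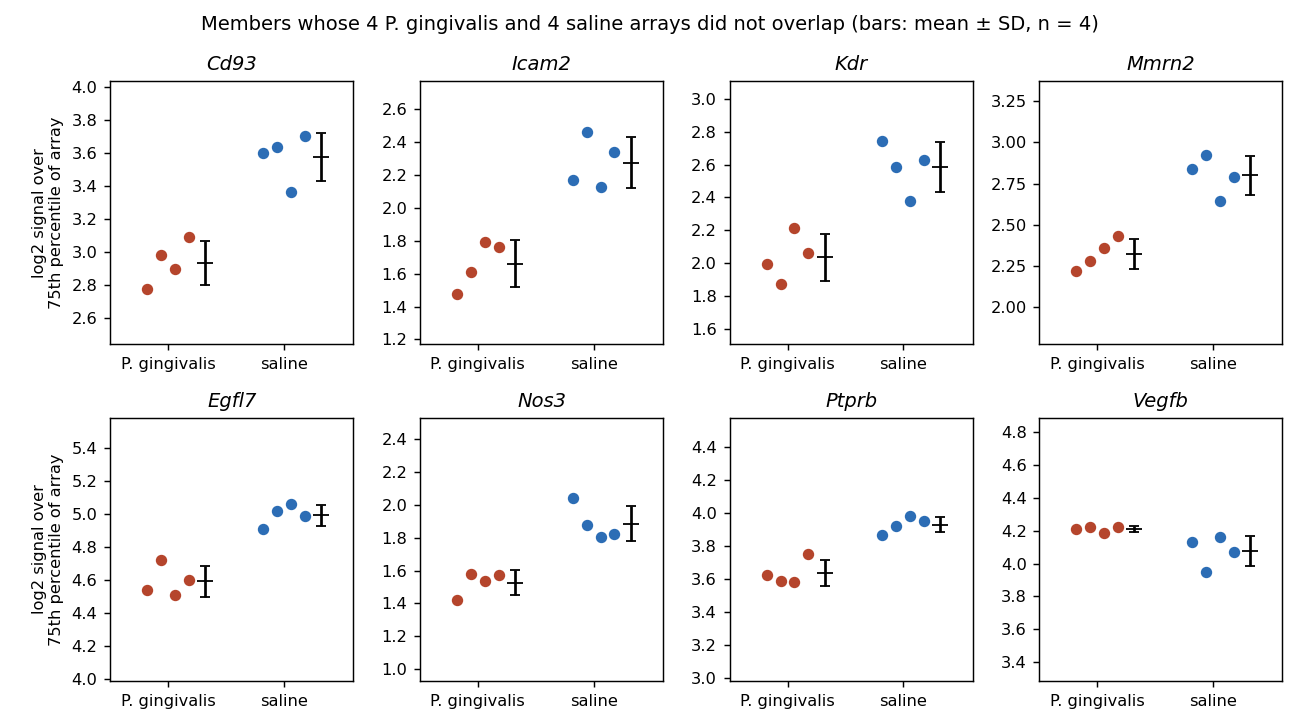
Log2 signal over the 75th percentile of the array for the 8 members whose arrays did not overlap. Each point is an array, with P. gingivalis arrays left of saline arrays, and black marks give mean ± SD (n = 4). Every panel spans the same range of log2 units. The 7 lower members and the higher Vegfb each show a gap between the groups.

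The probes behind these values are given by their first 30 of 60 bases, 5′ to 3′, as the array design lists them. They are shown so that the part of the transcript each value reads can be traced. The same is done for Pecam1, Cdh5 and Vegfb, whose values differ in pattern. No capitals are used because no stretch within a probe is singled out.
Cd93: acaacataacattctgaggggagtcacagg
Icam2: gcagcagatgcgggggacatttcctctcct
Kdr: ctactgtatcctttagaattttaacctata
Mmrn2: actgtttctcagaaggaatgtctacagtga
Egfl7: cctgtctaagtggtaaggtggggattgtct
Nos3: tgtagactccctttaactctctctctggag
Ptprb: caatctactcgagacattaagaattcacct
Vegfb: tgcttttatggccctgcttcacagggagaa
Pecam1: ccccagaacatggatgtagaatacacagaa
Cdh5: acttattataagactctagttctcacagac
The files place these probes on build mm9. Cd93 is read at chr2:148262436-148262495 on the minus strand, Icam2 at chr11:106238971-106239030 on the minus strand and Kdr at chr5:76329309-76329368 on the minus strand. Mmrn2 is read at chr14:35216855-35216914 on the plus strand, Egfl7 at chr2:26448142-26448201 on the plus strand and Nos3 at chr5:23890038-23890097 on the plus strand. Ptprb is read at chr10:115820912-115820971 on the plus strand, Vegfb at chr19:7057245-7057304 on the minus strand, Pecam1 at chr11:106540864-106540923 on the minus strand and Cdh5 at chr8:106668159-106668218 on the plus strand. The files give a transcript for each probe but not whether the stretch is coding, and no genome of that build was used here.

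Among the 13 identity and junction genes, 12 had differences below 0 (52.3% of all genes) and the median was -0.20. At an unadjusted p under 0.05, 4 of them were lower (9.68% of all genes) and 1 was higher (10% of all genes). After adjustment 0 were called (0.117% of all genes). Cd93, an endothelial surface glycoprotein of the C-type lectin family, measured 2.77, 2.98, 2.89 and 3.09 in the Pg arrays, against 3.60, 3.63, 3.37 and 3.71 in the Co arrays. The highest Pg array stood below the lowest Co array. The log2 difference was -0.64 (SE 0.10, 95% interval -0.87 to -0.42), with an adjusted p of 0.0579 in limma. The two-sided exact permutation test gave an unadjusted p of 0.0286. That exact p follows from the lack of overlap itself, which 2993 of 22271 genes showed, so it adds no separate support. It is the smallest which 70 assignments of 4 against 4 arrays allow, and it is shared by all 8 members without overlap.

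Mmrn2 encodes multimerin 2, a protein of the endothelial matrix that binds Cd93. Its values were 2.22, 2.28, 2.36 and 2.43 in the Pg arrays, against 2.84, 2.93, 2.64 and 2.79 in the Co arrays. The groups were separate here too, and the log2 difference was -0.48 (SE 0.08, adjusted p = 0.0596). Icam2 is an adhesion molecule that endothelial cells carry constitutively. It measured 1.48, 1.61, 1.79 and 1.76 in the Pg arrays, against 2.17, 2.46, 2.13 and 2.34 in the Co arrays. All Pg arrays lay below all Co arrays, with a log2 difference of -0.62 (SE 0.10, adjusted p = 0.0596). Egfl7 is a secreted protein with EGF-like domains that endothelial cells deposit around growing vessels. It measured 4.54, 4.72, 4.51 and 4.60 in the Pg arrays, against 4.91, 5.02, 5.06 and 4.99 in the Co arrays. The log2 difference was -0.40 (SE 0.07, adjusted p = 0.0596), and again no Pg array reached a Co array.

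Pecam1 and Cdh5, widely used endothelial markers read here by 1 probe each, did not share this separation. Pecam1, the platelet and endothelial adhesion molecule CD31, measured -0.04, 0.08, -0.13 and 0.12 in the Pg arrays, against -0.28, -0.11, -0.12 and -0.17 in the Co arrays. Its log2 difference was 0.18 (SE 0.07, adjusted p = 0.237), and 1 Pg array lay inside the range of the Co arrays. Cdh5, the VE-cadherin of endothelial junctions, measured 1.996, 2.121, 2.181 and 2.500 in the Pg arrays, against 2.171, 2.287, 2.371 and 2.474 in the Co arrays. The groups overlapped, with a log2 difference of -0.13 (95% interval -0.40 to 0.15, adjusted p = 0.578). For Eng, the endoglin co-receptor of TGF-beta family ligands, means were 1.74 ± 0.05 in Pg arrays and 1.76 ± 0.11 in Co arrays (SD, n = 4 each), with a 95% interval of the log2 difference from -0.17 to 0.14. A dimmer second Eng probe, on another transcript, gave -0.29 without overlap (adjusted p = 0.0843 over all kept probes), so the probes of this gene disagreed. Emcn, the sialomucin endomucin, averaged 2.17 ± 0.23 in Pg arrays and 2.22 ± 0.01 in Co arrays (SD, n = 4 each).

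The other 5 identity genes were all lower on average with overlapping arrays. Cldn5, the claudin of endothelial tight junctions, averaged 0.18 ± 0.31 in Pg arrays and 0.59 ± 0.33 in Co arrays (SD, n = 4 each, adjusted p = 0.315 in limma). Vwf, the multimeric glycoprotein stored in Weibel-Palade bodies, averaged 1.87 ± 0.22 in Pg arrays and 2.20 ± 0.24 in Co arrays (adjusted p = 0.270). The 3 kept Vwf probes disagreed, with log2 differences from -0.34 to 0.021. Plvap, which forms the diaphragms of fenestrae and caveolae, averaged 0.95 ± 0.09 in Pg arrays and 1.15 ± 0.16 in Co arrays (adjusted p = 0.271). Robo4, an endothelial roundabout receptor, differed by -0.14 (SE 0.09) and Esam, a junctional adhesion molecule, by -0.13 (SE 0.07), both on the log2 scale. Centring arrays on their median instead of the 75th percentile added 0.15 to the difference of every member, which put Cdh5, Esam, Emcn, Robo4 and Eng above 0. The differences of Eng and Emcn also changed sign when single arrays were left out.

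**Figure D2:**
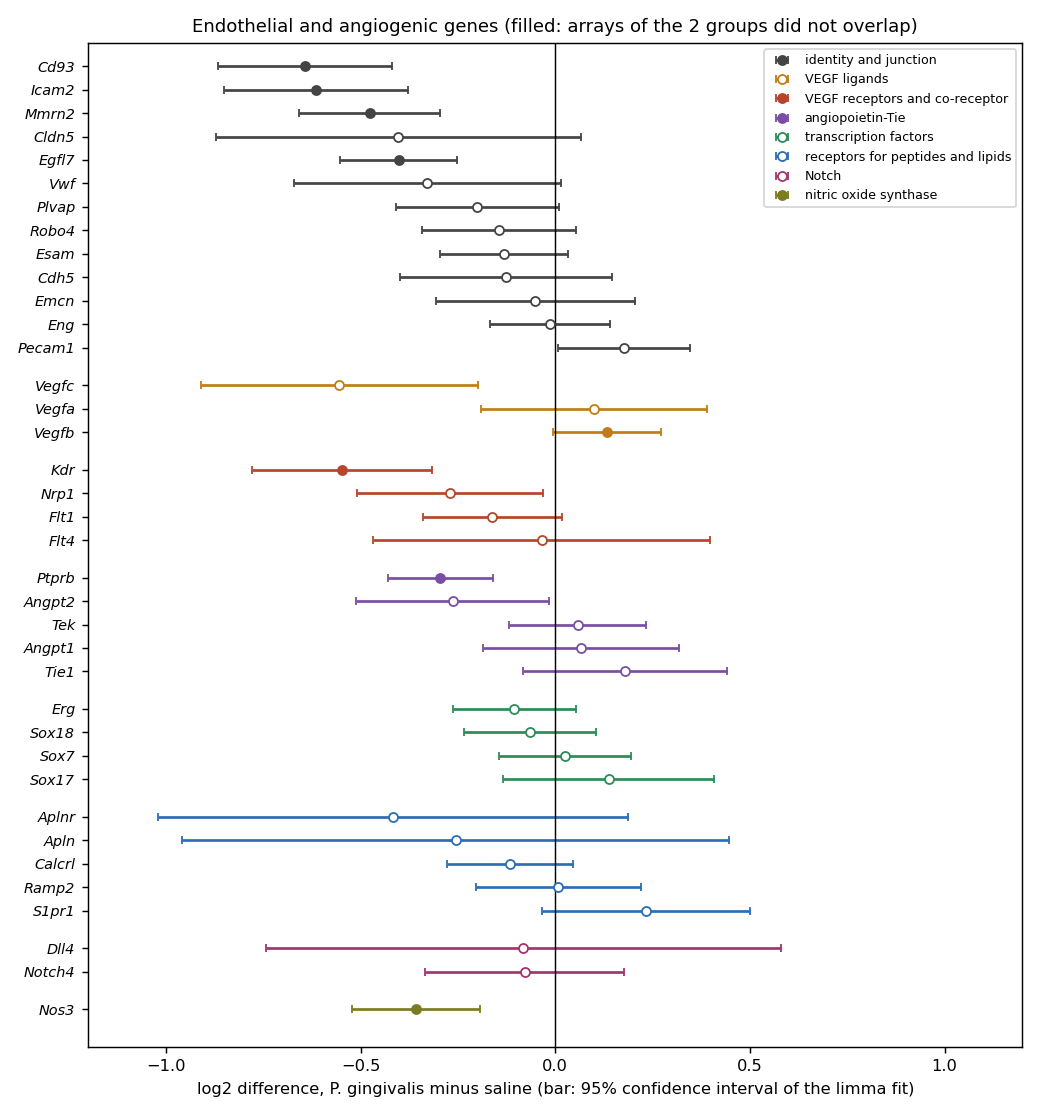
Log2 difference, P. gingivalis minus saline, for each of the 37 members, grouped by role, with the 95% confidence interval of the limma fit over 8 arrays. Filled points mark members whose arrays of the 2 groups did not overlap. 27 of 37 points lie left of 0, and the intervals of the 7 lower members without overlap all lie below 0.

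Of the 3 VEGF ligands, none was called (0.117% of all genes). Vegfa, the main growth factor for capillary sprouting, measured 4.28, 4.48, 4.58 and 4.06 in the Pg arrays, against 4.42, 4.10, 4.29 and 4.19 in the Co arrays. The groups were interleaved, and the log2 difference of 0.10 had a 95% interval from -0.19 to 0.39. All 4 kept Vegfa probes gave differences between 0.0078 and 0.12. Vegfb, a ligand of Flt1 linked to fatty acid uptake of the endothelium in mice, measured 4.21, 4.22, 4.18 and 4.22 in the Pg arrays, against 4.13, 3.95, 4.16 and 4.07 in the Co arrays. It was the only member with every Pg array above every Co array, by a log2 difference of 0.13 (SE 0.06, adjusted p = 0.266). Vegfc, the ligand of the lymphatic receptor Flt4, measured -1.88, -1.80, -1.40 and -1.56 in the Pg arrays, against -1.04, -1.14, -1.43 and -0.81 in the Co arrays. The arrays numbered 3 kept these groups from being separate, and the log2 difference was -0.56 (SE 0.15, adjusted p = 0.122). A dimmer Vegfc probe gave -0.49 without overlap (adjusted p = 0.0769 over all kept probes).

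All 4 VEGF receptors and co-receptors had differences below 0 (52.3% of all genes), with a median of -0.22 and no call (0.117% of all genes). Kdr, which encodes VEGF receptor 2 and carries most of the signal of Vegfa in endothelium, measured 1.99, 1.87, 2.21 and 2.06 in the Pg arrays, against 2.74, 2.59, 2.38 and 2.63 in the Co arrays. No array of one group entered the range of the other, and the log2 difference was -0.55 (SE 0.10, 95% interval -0.78 to -0.32, adjusted p = 0.0643). Flt1, VEGF receptor 1, which also has a soluble form that traps ligand, measured 3.71, 3.74, 3.71 and 3.91 in the Pg arrays, against 3.91, 3.84, 4.09 and 3.87 in the Co arrays. The fourth Pg array lay among the Co arrays, and the log2 difference was -0.16 (SE 0.08, adjusted p = 0.293). The 4 kept Flt1 probes disagreed, with differences from -0.16 to 0.51, and their mean gave 0.12.

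Nrp1, the neuropilin co-receptor that endothelium shares with neurons and other cells, measured 3.11, 3.08, 3.25 and 3.02 in the Pg arrays, against 3.60, 3.42, 3.14 and 3.37 in the Co arrays. A single Co array fell inside the Pg range, and the log2 difference was -0.27 (SE 0.10, adjusted p = 0.209). Its 7 kept probes ranged from -0.47 to 0.45. Flt4, VEGF receptor 3 of lymphatic endothelium, was well above background on 4 of 4 Pg arrays but on 2 of 4 Co arrays. It was close to the background level throughout, at -4.43 ± 0.20 in Pg arrays and -4.40 ± 0.37 in Co arrays (SD, n = 4 each).

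In the angiopoietin and Tie group of 5, 2 had differences below 0 (52.3% of all genes). Ptprb, the vascular endothelial phosphatase VE-PTP that acts on Tek and VE-cadherin, measured 3.63, 3.59, 3.58 and 3.75 in the Pg arrays, against 3.87, 3.92, 3.98 and 3.95 in the Co arrays. The groups did not overlap, and the log2 difference was -0.29 (SE 0.06, adjusted p = 0.0735). Its second kept probe gave -0.20 with overlap. Tek, the Tie2 receptor itself, measured -0.24, -0.27, -0.09 and 0.03 in the Pg arrays, against -0.23, -0.18, -0.23 and -0.15 in the Co arrays. Here the Pg arrays lay on both sides of the Co arrays, and the log2 difference of 0.06 had a 95% interval from -0.12 to 0.23.

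Angpt2, the context-dependent antagonist of Tek that endothelial cells release, measured -1.10, -1.01, -1.44 and -1.27 in the Pg arrays, against -0.97, -0.79, -1.09 and -0.92 in the Co arrays. Only the second Pg array entered the Co range, and the log2 difference was -0.26 (SE 0.11, adjusted p = 0.232). Angpt1, the agonist from perivascular cells, differed by 0.07 (SE 0.11) and Tie1, the orphan partner of Tek, by 0.18 (SE 0.11), both log2 differences with overlapping arrays.

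Nos3, the endothelial nitric oxide synthase whose product relaxes smooth muscle, measured 1.42, 1.58, 1.54 and 1.57 in the Pg arrays, against 2.04, 1.87, 1.80 and 1.82 in the Co arrays. No overlap occurred, and the log2 difference was -0.36 (SE 0.07, adjusted p = 0.0735), which is 1.28-fold lower. The 7 lower members were the only members with an adjusted p under 0.10, a threshold that 1.37% of all genes passed on the lower side.

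The 4 endothelial transcription factors had a median log2 difference of -0.02, and all overlapped. None had an unadjusted p under 0.05 in limma, where 9.68% of all genes were lower and 10% higher. Erg, an ETS factor that maintains endothelial identity, differed by -0.10 (SE 0.07). Sox17, Sox18 and Sox7, the SOXF factors of vascular development, differed by 0.14 (SE 0.12), -0.06 (SE 0.07) and 0.02 (SE 0.07), in that order and on the log2 scale. Among the receptors for peptides and lipids, S1pr1, the sphingosine 1-phosphate receptor, averaged 0.73 ± 0.13 in Pg arrays and 0.49 ± 0.21 in Co arrays (SD, n = 4 each, adjusted p = 0.308). Aplnr and its ligand Apln were the members that shared the widest intervals with Dll4, with log2 differences of -0.42 (SE 0.26) and -0.26 (SE 0.30). Calcrl and Ramp2, which together form a receptor for adrenomedullin, differed by -0.12 (SE 0.07) and 0.0077 (SE 0.09). A dimmer second Ramp2 probe gave 0.22 with overlap (unadjusted p = 0.0356 in limma, adjusted p = 0.208 over all kept probes). None of these 5 had an unadjusted p under 0.05 on its brightest probe.

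Dll4, the Notch ligand of endothelial tip cells, measured -3.37, -3.19, -3.99 and -3.05 in the Pg arrays, against -3.32, -3.58, -2.62 and -3.76 in the Co arrays. The groups were interleaved over more than a log2 unit, and the difference of -0.08 had a 95% interval from -0.74 to 0.58. Notch4, the endothelial Notch receptor, averaged 2.48 ± 0.19 in Pg arrays and 2.56 ± 0.13 in Co arrays (SD, n = 4 each). A difference of the size seen for Cd93 lay inside the interval for Dll4, so it was not detectable for that gene at this number of arrays.

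Promoter sequence was looked up in RefSeq (assembly GRCm38.p6), where 19 members had 24 windows of 250 bases before a start site. The ETS motif letters CAGGAAG, searched on both strands, occurred in 8 of the 24 windows (33.3%), against 10.8% of all 32851 windows of that length. The genes were Apln, Calcrl, Egfl7 (in more than 1 window), Emcn, Erg, Notch4 and Robo4. The variant CCGGAAG occurred in 0 of 24 windows, against 6.91% of all windows. The GATA letters AGATAAG were found only in 1 window of Erg and the KLF letters CCACACC only in 1 window of Tie1. Each was 4.17% of the windows, against 2.74% and 6.52% of all windows, in that order. Of the 7 lower members only Egfl7 and Kdr had a window, and these are printed 5′ to 3′ along the gene's strand, with matches to CAGGAAG or its reverse complement in capitals. Egfl7 lies on the plus strand, with windows at chr2:26580833-26581082, chr2:26583615-26583864 and chr2:26586386-26586635, and Kdr lies on the minus strand, with its window at chr5:75978456-75978705.
Egfl7, start 1: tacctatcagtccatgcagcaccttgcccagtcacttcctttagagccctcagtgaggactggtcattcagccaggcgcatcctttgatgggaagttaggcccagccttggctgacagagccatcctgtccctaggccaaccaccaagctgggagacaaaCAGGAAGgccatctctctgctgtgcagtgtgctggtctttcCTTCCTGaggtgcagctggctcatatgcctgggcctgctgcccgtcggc
Egfl7, start 2: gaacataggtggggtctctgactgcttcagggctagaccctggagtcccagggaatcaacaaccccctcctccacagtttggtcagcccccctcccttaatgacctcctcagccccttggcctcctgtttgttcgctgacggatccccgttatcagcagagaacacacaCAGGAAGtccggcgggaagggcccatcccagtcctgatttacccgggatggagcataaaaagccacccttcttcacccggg
Egfl7, start 3: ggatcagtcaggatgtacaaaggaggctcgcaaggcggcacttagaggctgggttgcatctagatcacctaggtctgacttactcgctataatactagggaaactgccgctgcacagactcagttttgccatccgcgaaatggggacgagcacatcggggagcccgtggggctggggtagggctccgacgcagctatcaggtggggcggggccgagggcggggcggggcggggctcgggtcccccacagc
Kdr: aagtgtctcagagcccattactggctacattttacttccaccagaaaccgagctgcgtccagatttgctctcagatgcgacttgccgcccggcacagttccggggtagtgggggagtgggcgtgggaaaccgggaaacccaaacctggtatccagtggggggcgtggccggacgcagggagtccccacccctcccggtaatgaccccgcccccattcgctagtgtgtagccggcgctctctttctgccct
The window of Egfl7 start 1 holds the letters in both orientations, that of start 2 holds them once, and those of start 3 and of Kdr do not hold them. Such a match is a description of the letters in these windows.

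The wider vascular list of 60 other genes had 59 tested, of which 36 had differences below 0 (52.3% of all genes). Their median was -0.10, and 0 were called after adjustment (0.117% of all genes). At an unadjusted p under 0.05, 15 were lower (9.68% of all genes) and 4 were higher (10% of all genes). Separate arrays were found for 11 on the lower side (6.1% of all genes) and 4 on the higher side (7.34% of all genes). The 8 with the smallest p are named. Id1, a target of BMP signalling in endothelium, measured 2.08, 2.21, 2.10 and 2.29 in the Pg arrays, against 2.83, 2.47, 2.69 and 2.76 in the Co arrays (log2 difference -0.51, SE 0.09, adjusted p = 0.0611). Klf2, a factor that laminar flow induces in endothelium and that drives Nos3, measured 1.36, 1.37, 1.52 and 1.98 in the Pg arrays, against 2.46, 2.26, 2.29 and 2.64 in the Co arrays (log2 difference -0.85, SE 0.16, adjusted p = 0.0643). Both genes had separate arrays on the lower side. On the higher side, Mcam, an adhesion molecule of endothelium and pericytes, measured 4.34, 4.39, 4.30 and 4.32 in the Pg arrays, against 4.07, 4.03, 4.15 and 4.03 in the Co arrays (log2 difference 0.26, SE 0.05, adjusted p = 0.0730). Adm, the adrenomedullin peptide, was also higher without overlap, by 0.33 (SE 0.08, adjusted p = 0.0894). The adaptor gene She (-0.43, adjusted p = 0.0730), the Notch target Hey1 (-0.38, adjusted p = 0.0987), the repressor Bcl6b (-1.22, adjusted p = 0.113) and the ETS factor Fli1 (-0.29, adjusted p = 0.122) had negative log2 differences without overlap.

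By array, the mean deviation of the 37 members from their average over the 8 arrays was -0.17, -0.09, -0.08 and 0.01 in the Pg arrays, against 0.08, 0.09, 0.04 and 0.12 in the Co arrays. The fourth Pg array came closest to the Co arrays. Markers of other cells moved as follows, without a call at an adjusted p of 0.05 in any list (0.117% of all genes in the limma fit). Over all genes, 52.3% were lower. Of 12 pericyte and smooth muscle markers, 5 were lower, with list means of -0.10 to 0.16 in Pg arrays and -0.12 to 0.05 in Co arrays. Of 6 lymphatic markers 5 were lower (-0.53 to 0.20 in Pg arrays, -0.15 to 0.31 in Co arrays), and of 9 macrophage markers 8 were lower (-0.55 to 0.18 in Pg arrays, -0.70 to 0.70 in Co arrays). Of 7 platelet markers 4 were lower, of 7 fibroblast markers 3 and of 6 adipocyte markers 4, and both groups overlapped in each list mean. Only 2 of the 7 platelet markers were well above background on all 8 arrays.

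All 6 red blood cell markers had higher means, with a median of 0.61 and list means of -0.07 to 0.74 in Pg arrays and -1.37 to 0.63 in Co arrays. Muscle fibre markers also had higher means. For the slow fibre list 7 of 7 were higher and 4 had separate arrays, with list means of 0.02 to 0.12 in Pg arrays and -0.13 to -0.02 in Co arrays. For the fast fibre list 9 of 9 were higher and 4 had separate arrays, with list means of -0.30 to 0.46 in Pg arrays and -0.71 to 0.20 in Co arrays. Over all genes tested, 10616 of 22271 were higher, and 7.34% had separate arrays on that side. All 7 slow fibre markers were well above background on all 8 arrays. The part of these markers in the vascular differences was not tested. An alternative chosen after seeing the data left out the third Pg and first Co arrays, which had the lowest fast fibre means of their groups. It cannot show the part of the fibre markers, because it did not make them equal. Slow fibre list means of the remaining arrays were 0.11, 0.12 and 0.02 in Pg, against -0.03, -0.02 and -0.12 in Co. The log2 differences were then -0.62 for Cd93, -0.69 for Icam2, -0.55 for Kdr and -0.48 for Mmrn2. For Egfl7, Nos3 and Ptprb they were -0.40, -0.31 and -0.30. With 3 arrays a group, 0 members and 0% of all genes were called.

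**Figure D3:**
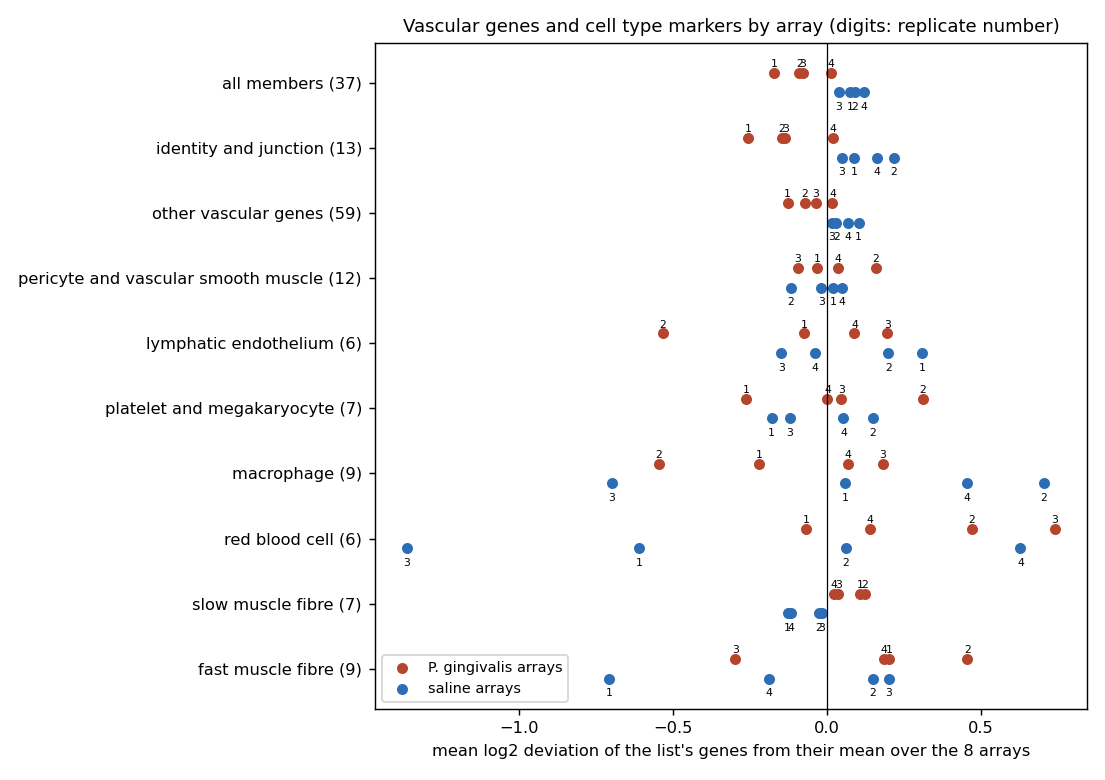
Mean log2 deviation of each list's genes from their average over the 8 arrays, with P. gingivalis arrays above saline arrays in each row, and the number of genes in brackets. The 37 members, their identity and junction genes and the slow fibre list show no overlap between groups, the slow fibre list in the opposite direction. The gap is narrow for the 37 members (0.013 against 0.038) and the identity and junction genes (0.021 against 0.048). Macrophage and red blood cell lists spread widely within both groups.

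The call of 0 members depended on the processing. The 7 lower members kept their sign, but they were picked for arrays without overlap. Leaving out or weighting arrays, or another variance model, therefore could not turn that sign. Only alternatives that changed the values or the probe could. With normexp background correction 7 members were called (2.04% of all genes), and with a trended and robust variance 7 (2.51% of all genes), in both cases the 7 named above. Without a filter on dim probes the same 7 were called, where 13.9% of all genes were. Quantile normalization called Cd93, Egfl7 and Icam2 (0.943% of all genes), and together with normexp on median signals also Kdr and Nos3 (1.51% of all genes). A filter that asked for signal above background on all 8 arrays called Cd93, Egfl7, Icam2, Kdr and Mmrn2 (1.34% of 19418 genes). Array weights called Cd93, Egfl7, Icam2 and Mmrn2 (0.862% of all genes). Over 22 alternatives the log2 difference of Cd93 stayed between -0.71 and -0.49, that of Icam2 between -0.69 and -0.47 and that of Kdr between -0.62 and -0.40. Mmrn2 ranged from -0.53 to -0.33, Egfl7 from -0.44 to -0.25, Nos3 from -0.38 to -0.21 and Ptprb from -0.35 to -0.15. None of the 7 changed sign. With arrays centred on their median the median of all genes was 0.14, and the fit called Cd93, Icam2, Kdr and Mmrn2 lower and Pecam1 and Vegfb higher (10.7% of all genes). With single arrays left out in turn 0 members were called, among 2 to 7 genes called in all.

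**Figure D4:**
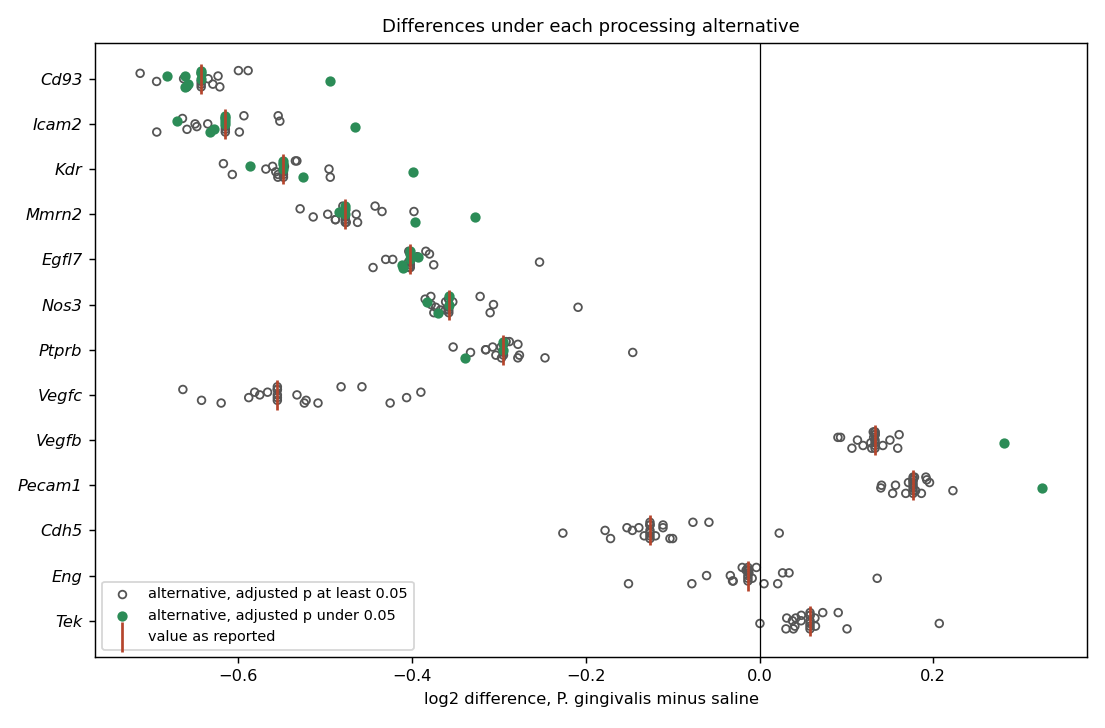
Log2 difference, P. gingivalis minus saline, for 13 members under each processing alternative (circles, filled where the adjusted p over all genes was under 0.05) and as reported (vertical bar). The 7 lower members, picked for lack of overlap, stay left of 0 in every alternative run. Where arrays are only left out or weighted, this follows from that choice. Cdh5 and Eng have values on both sides of 0.

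The authors' deposited table of comparisons, with 28250 rows, had a row for all 37 members and called 5 of them (1.53% of its rows). The authors' deposited table gave log2 fold changes, as its column names have the groups, of 0.68 for Cd93, 0.67 for Icam2, 0.59 for Kdr, 0.40 for Egfl7 and 0.38 for Nos3, with adjusted p from 0.0431 to 0.0490. In the authors' deposited table Ptprb had 0.35 (adjusted p = 0.0621) and Mmrn2 had 0.40 (adjusted p = 0.0700). The signs in the authors' deposited table were opposite to those above for 33 of 37 members and the same for Eng, Angpt1, Sox7 and Notch4. Its rows were matched to members by transcript and not by probe, so a row may rest on another probe of the gene. Nrp1, for example, had 0.05 there, against -0.27 above.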

How the data were processed

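RNA of soleus muscle (200 ng input, Cy3, 1 colour) was measured on 8 Agilent arrays of 56605 probes, 4 Pg and 4 Co. The intensity values used are the processed signals of the scanner files that the authors deposited; per the submitters' processing notes they come from Agilent Feature Extraction 11.1. Per the file headers, all 8 arrays share 1 slide and 1 scan. The authors' deposited table holds normalized log2 values, log2 fold changes and p-values, whose normalization is not given in the sources used here. Its score columns, moderated statistics and log odds as the authors deposited them, were not used.

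For each array the log2 of the processed signal was taken relative to its 75th percentile over non-control spots. Spots marked as outliers were left out. Probes flagged as above background on 4 or more of the 8 arrays were kept (33748), and the brightest kept probe stood for its gene. For 28 of the 37 members it was the only kept probe. Of the 20 other kept probes of members, 15 had the sign of the brightest probe and 5 the opposite sign. Names came from RefSeq by accession (32994 probes), by current symbol (10224) or by older symbol (520), and otherwise from the files (12867). Pg minus Co was tested over all 22271 genes with limma 3.58.1 (R 4.3.3; lmFit and eBayes, two-sided, Benjamini-Hochberg), and single genes with a two-sided exact permutation test. The script was tested on simulated data. Depth has no meaning for arrays, and precision is limited by 4 arrays a group. The members and lists were chosen with earlier results of these data known. Values on every array are given for members without overlap, for Pecam1, Cdh5, Kdr, Flt1, Tek, Vegfa, Nos3 and Dll4, and for Vegfc, Nrp1 and Angpt2, added after their values were seen, and the other vascular genes named are the 8 with the smallest p. Alternatives were background correction, normalization, the filter, the probe rule, names, outlier spots, the variance model, array weights, a replicate block and leaving out arrays. Replicate numbers coincide with slide rows. Deviations of same-numbered arrays correlated at 0.06, -0.06, -0.04 and 0.23, so the numbers were not taken as pairs.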

Additional observations from a re-analysis of the deposited data

Results flagged for a closer look

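In 3 of 74 groups of 4 arrays, over the 37 members, 1 array stood apart from the other 3 by more than Dixon's 95% critical value (0.829 of the range), where chance alone flags about 1 in 20 groups. The fourth Pg array had 3.07 for Robo4, with the other Pg arrays between 2.78 and 2.81, and 3.91 for Flt1, with the others between 3.71 and 3.74. The first Pg array had -1.57 for Erg, with the others between -1.43 and -1.41.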

How the results depend on the processing

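The number of genes called over the whole array was 26 as reported. It was 455 with normexp, 210 with quantile normalization, 2384 with median centring (2288 higher, 96 lower, against 8 and 18), 337 with normexp on median signals and quantile normalization, 261 with the filter on all 8 arrays, 5160 without a filter (511 higher, 4649 lower), 9 with the mean of probes, 559 with a trended robust variance, 192 with array weights and 55 over single probes. It was 2 to 7 without single arrays and 0 without the third Pg and first Co arrays together, an alternative chosen after seeing the data. With the replicate block it was 0, with 0 members called and a smallest adjusted p of 0.155; 2 of 4 Pg arrays correlated best with the Co array of their number. Member calls, 0 as reported, were 7 with normexp, with no filter and with the trended robust variance, 6 with median centring, 5 with normexp and quantile together and with the filter on all arrays, 4 with array weights, 3 with quantile normalization, and 0 without any single array (smallest adjusted p 0.0589 to 0.135). The causes were not tested. The member median of -0.13 became 0.023 with median centring, 0.12 below that of all genes as before, -0.19 without the fourth Pg array, and lay between -0.19 and -0.091 without single arrays. The 7 lower members kept their sign in all 22 alternatives. Where an alternative reused the same values, this follows from their lack of overlap. Of the 22, Cd93 and Icam2 passed 8, Egfl7 7, Kdr and Mmrn2 6, Nos3 4 and Ptprb 3.

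Median centring added 0.15 to every member's difference, so the sign turned for those that lay less than that below 0: Cdh5 (0.023), Esam (0.017), Emcn (0.098), Robo4 (0.0045), Eng (0.14), Flt4 (0.11), Sox18 (0.084), Erg (0.044), Calcrl (0.032), Notch4 (0.071) and Dll4 (0.067). Signs turned with normexp for Eng (0.021) and Sox7 (-0.013), with quantile normalization for Flt4 (0.13), Ramp2 (-0.0011) and Dll4 (0.072), and with both steps on median signals for Eng (0.034), Angpt1 (-0.029), Sox7 (-0.013) and Notch4 (0.0050). They turned for Ramp2 with the percentile over detected probes (-0.013) and array weights (-0.0055), and for Flt1 with the mean of probes (0.12). Without single arrays the range crossed 0 for Emcn (-0.13 to 0.027), Flt4 (-0.13 to 0.14), Eng (-0.061 to 0.027), Dll4 (-0.23 to 0.15), Angpt1 (-0.017 to 0.14), Ramp2 (-0.058 to 0.053) and Sox7 (-0.0087 to 0.064). Without the third Pg and first Co arrays the sign turned for Ramp2 (-0.028), Notch4 (0.0055) and Dll4 (0.11). As reported these differences were between -0.16 and 0.07. Precision was limited by 4 arrays a group, and for Flt4 by signal near background.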
